A study of Homo sapiens with 4 samples.

Results

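The mRNAs of telomerase, shelterin and the chromatin remodeler ATRX were followed after knockdown of SAPCD2. The 10 genes TERT, DKC1, NHP2, NOP10, GAR1, TERF1, TERF2, POT1, ACD and ATRX were selected by name, matched through their GENCODE symbols to the Ensembl identifiers of a count table of 64252 genes, and all 10 passed the filter on low counts that left 18779 genes. RNA-seq was available for SK-N-BE(2), an established human neuroblastoma line with MYCN amplification, transduced with a scrambled shRNA (sh-Scb, 2 libraries) or with an shRNA against SAPCD2 (sh-SAPCD2, 2 libraries), both carried stably by lentivirus after puromycin selection. No time point is given, and nothing states that the libraries of a group came from separate cultures, so p-values measure the spread between these libraries. The labels do not name the hairpin. A heat map in the paper labels these knockdown cells as sh-SAPCD2 #1, so 1 hairpin is taken to stand for the knockdown.

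Telomerase is a ribonucleoprotein. TERT is its reverse transcriptase, the RNA TERC carries the template, and the RNA is bound by the H/ACA proteins dyskerin (DKC1), NHP2, NOP10 and GAR1, which also form the box H/ACA snoRNPs that guide pseudouridylation of ribosomal RNA. Shelterin coats the telomeric repeats. TERF1 and TERF2 bind double-stranded repeats, POT1 binds the single-stranded overhang, ACD (TPP1) joins POT1 to the complex and brings in telomerase, TINF2 bridges the subunits and TERF2IP (RAP1) is carried by TERF2. ATRX deposits histone H3.3 at repeats together with DAXX, and its loss is known from neuroblastomas that lengthen telomeres by recombination without telomerase.

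The libraries held 25347900 to 31850997 counts, and 3 counts, taken as the smallest detectable amount, equaled 0.0955 to 0.119 CPM (TMM-scaled counts per 1000000 counts). This floor covers counting error only. SAPCD2 fell from 83.6 and 82.2 CPM in sh-Scb to 35.4 and 52.5 CPM in sh-SAPCD2 (log2 fold change -0.91, SE 0.193, adjusted p = 0.0206 from edgeR), so the 2 knockdown libraries also differed in the target. As a check of the cell type, the amplified neuroblastoma gene MYCN had a mean of 3206.5 ± 40.1 CPM in sh-Scb and 6497.6 ± 839.0 CPM in sh-SAPCD2 (SD, n = 2 per group). The 8 markers of other cell types summed to 25.2 and 26.6 CPM in sh-Scb and to 26.0 and 28.2 CPM in sh-SAPCD2. Most of this came from PTPRC, with 8.94 to 12.4 CPM, and COL3A1, with 7.70 to 9.27 CPM, while SOX10 had 0 counts in all 4 libraries. The 2 knockdown libraries differed from each other by base composition and length. Over 4316 protein-coding genes with a transcript GC content of at least 55%, the median log2 ratio of sh-SAPCD2 replicate 2 to replicate 1 was 0.35, over 5105 genes under 45% GC it was -0.22, and over 899 genes with a transcript of up to 1100 bp it was 0.37. Between the sh-Scb libraries the same medians lay between -0.01 and 0.01. Results that rest on sh-SAPCD2 replicate 2 are therefore also given without it.

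The promoters of the H/ACA subunits are shown because these genes share 1 particle and moved in different directions. RefSeq (GRCh38.p14) gives a promoter, 250 bases before to 50 bases after the start, for 7 of the 10 genes. TERF1, TERF2 and ATRX have no entry. The E-box CACGTG, the site of MYC-family proteins, and E2F-type sites (the heptamer TTGGCGC, its variant TTCCCGC, its variant TTGCCGC and its variant TTCGCGC) were searched on both strands. Both are in capitals below, and the sequences run 5′ to 3′ along the gene.
DKC1 (chrX:154762614-154762913, plus strand): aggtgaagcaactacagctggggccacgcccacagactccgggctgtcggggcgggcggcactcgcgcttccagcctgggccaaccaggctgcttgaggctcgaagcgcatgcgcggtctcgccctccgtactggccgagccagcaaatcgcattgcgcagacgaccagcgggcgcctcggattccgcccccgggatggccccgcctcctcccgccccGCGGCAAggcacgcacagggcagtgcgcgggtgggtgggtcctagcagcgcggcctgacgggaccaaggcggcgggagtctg
GAR1 (chr4:109815260-109815559, plus strand): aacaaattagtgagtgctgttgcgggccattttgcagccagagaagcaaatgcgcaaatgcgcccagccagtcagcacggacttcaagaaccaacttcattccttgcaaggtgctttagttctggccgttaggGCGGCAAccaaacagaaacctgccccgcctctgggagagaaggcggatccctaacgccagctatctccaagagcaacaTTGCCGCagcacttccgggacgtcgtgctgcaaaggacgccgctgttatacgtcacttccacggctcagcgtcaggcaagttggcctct
NHP2 (chr5:178153836-178154135, minus strand): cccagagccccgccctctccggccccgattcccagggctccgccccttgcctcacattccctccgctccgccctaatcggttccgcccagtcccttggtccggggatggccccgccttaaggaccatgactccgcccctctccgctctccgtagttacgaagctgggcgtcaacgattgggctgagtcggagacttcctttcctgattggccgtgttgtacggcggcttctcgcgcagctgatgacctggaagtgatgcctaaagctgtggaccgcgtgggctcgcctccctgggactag
NOP10 (chr15:34343087-34343386, minus strand): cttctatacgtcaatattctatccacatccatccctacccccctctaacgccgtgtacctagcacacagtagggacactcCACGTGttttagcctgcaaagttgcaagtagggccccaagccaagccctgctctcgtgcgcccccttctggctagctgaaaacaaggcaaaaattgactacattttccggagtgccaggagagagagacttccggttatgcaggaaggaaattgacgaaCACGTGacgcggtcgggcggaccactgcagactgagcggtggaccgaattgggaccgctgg

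The DKC1 window held 1 E2F-type site, 32 bases before the start, and no E-box. The GAR1 window at its first start held 2 E2F-type sites, 117 and 39 bases before the start. A second GAR1 start in RefSeq has an E-box 31 bases after it. NOP10 held 2 E-boxes, 170 and 11 bases before the start, and NHP2 held neither motif. Of the other genes, TERT held an E-box 163 bases before the start, ACD held an E2F-type site 5 bases before it, and POT1 held neither. Of all 35116 RefSeq promoters, 7.26% held the E-box and 13.0% an E2F-type site. These matches are letters in a window and do not show binding.

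After knockdown of SAPCD2, the share of these genes called was near that of all tested genes, and the H/ACA subunits differed in direction. A gene that was not called is not shown to be unchanged, and the number called varied with the processing, as given at the end. DKC1 fell and GAR1 rose, each past an adjusted p of 0.05, while the other 8 genes did not pass. This made 1 of 10 lower, where 12.5% of all tested genes were lower, and 1 of 10 higher, where 12.4% of all tested genes were higher, so the share called was close to the background. None of the 10 passed an absolute log2 fold change of 1 as well, a threshold that 9.84% of tested genes passed. By edgeR's unadjusted p under 0.05, 2 were lower and 3 were higher, and 0 of these had an absolute log2 fold change over 1. The share of all tested genes at this unadjusted threshold was not counted, so the 2 and the 3 have no background. DESeq2 called 1 lower and 3 higher, and 0 past both thresholds. Over all 34935 genes in its fit, it called 2185 lower and 2667 higher. The median log2 fold change of the 10 genes was -0.10 by edgeR, against 0.02 over all tested genes. The levels did not overlap between groups for 3 genes that were lower in sh-SAPCD2 (33.4% of tested genes) and 3 that were higher (33.5%).

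**Figure D1:**
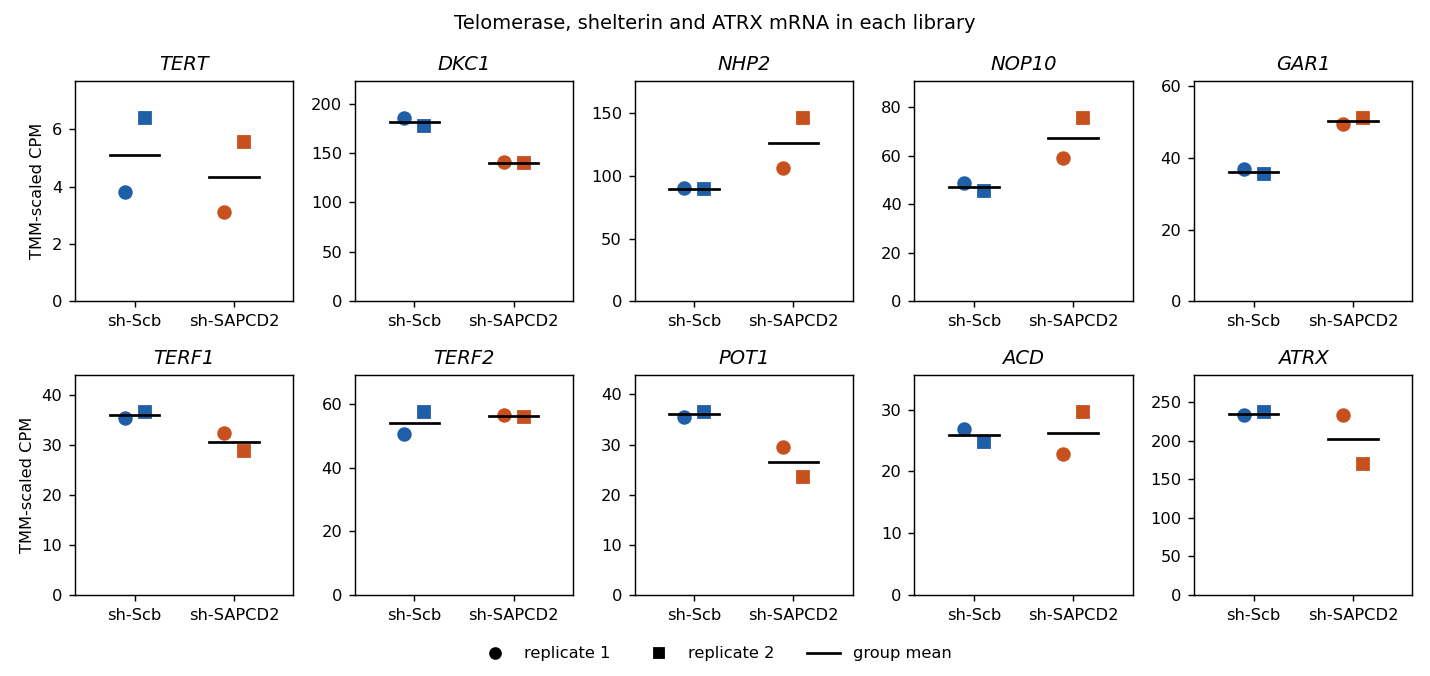
TMM-scaled CPM of the 10 genes in each of the 4 libraries, with sh-Scb in blue, sh-SAPCD2 in orange, circles for replicate 1, squares for replicate 2 and lines at the group means. Both sh-SAPCD2 libraries lie below both sh-Scb libraries for DKC1 and above them for GAR1, while the TERT values of the groups interleave.

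DKC1 encodes dyskerin, the pseudouridine synthase that forms the core of the particle. It had 185.7 and 177.1 CPM in sh-Scb and 140.6 and 140.0 CPM in sh-SAPCD2. The groups were apart, and the libraries within each group lay close together. The mean went from 181.4 ± 6.11 to 140.3 ± 0.437 CPM (SD, n = 2 per group). The log2 fold change was -0.37 with a standard error of 0.0951, and the Benjamini-Hochberg adjusted p was 0.0362 in the quasi-likelihood test of edgeR, run over every tested gene. DKC1 (ENSG00000130826) lies on the plus strand of chromosome X from 154762742 to 154777689 in hg38, has 15 exons, and holds in its introns the H/ACA snoRNA genes SNORA36A and SNORA56, which had at most 4 counts in a library. The call was lost without sh-Scb replicate 1 or replicate 2, with values of -0.34 and -0.41. It was kept without sh-SAPCD2 replicate 1 or replicate 2, with values of -0.38 and -0.37. A fit with no filter on low counts also lost it (adjusted p = 0.0768 from edgeR). In RNA from bulk cultures, fewer cells of a type and less RNA per cell cannot be told apart.

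GAR1 (ENSG00000109534) joins the particle at its maturation, where it replaces the assembly factor NAF1. It had 36.9 and 35.4 CPM in sh-Scb against 49.4 and 51.2 CPM in sh-SAPCD2, so that both knockdown libraries were higher than both controls. The mean rose from 36.1 ± 1.00 to 50.3 ± 1.28 CPM (SD, n = 2 per group), which on the log2 scale was 0.48 with a standard error of 0.116 (edgeR, adjusted p = 0.0305). It lies on the plus strand of chromosome 4 from 109815510 to 109824740 on hg38. The call was lost without sh-Scb replicate 1 or replicate 2 (0.50 and 0.45) and with no filter on low counts (adjusted p = 0.0677 from edgeR). Without sh-SAPCD2 replicate 1 or replicate 2 it was kept (0.50 and 0.45).

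NHP2, which binds the RNA next to dyskerin, had 90.1 and 89.3 CPM in sh-Scb and 106.4 and 146.6 CPM in sh-SAPCD2. NOP10, a small protein that docks on the catalytic domain of dyskerin, had 48.7 and 45.5 CPM in sh-Scb and 58.9 and 75.7 CPM in sh-SAPCD2. For both genes the knockdown libraries were above the controls and differed from each other by more than the controls did. The log2 fold change was 0.50 for NHP2 (standard error 0.163, adjusted p = 0.0733 from edgeR) and 0.52 for NOP10 (standard error 0.151, adjusted p = 0.0537 from edgeR), so neither was called. DESeq2 called both (adjusted p = 0.0160 and 0.0134). Without sh-SAPCD2 replicate 2, the values were 0.25 for NHP2 and 0.32 for NOP10, and without replicate 1 they were 0.70 and 0.68. Each gene was called in these fits, which leave a lone knockdown library. Neither was called without sh-Scb replicate 1 or without sh-Scb replicate 2. The canonical transcripts of NHP2, NOP10 and GAR1 are 780, 507 and 1015 bp long, and the median log2 fold change over all 899 tested protein-coding genes with a transcript of up to 1100 bp was 0.22, against 0.03 over the 12718 longer ones. After each library was adjusted by loess for GC and transcript length, NHP2 had 0.35, NOP10 had 0.51, GAR1 had 0.52 and DKC1 had -0.29. All 4 were called (adjusted p from 0.00207 to 0.00666 from edgeR), in a fit that called 3607 lower and 3910 higher of 18779 genes. NHP2 lies on chromosome 5 from 178149463 to 178153894 and overlaps RMND5B on the other strand, which had 703 to 1252 counts, and NOP10 lies on chromosome 15 from 34339159 to 34343180. The sources used here do not state whether the counting used strand, so reads in such overlaps cannot be told apart.

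Within a library, the CPM per kb of canonical transcript of GAR1 relative to that of DKC1 was 0.483 and 0.487 in sh-Scb and 0.855 and 0.890 in sh-SAPCD2. The ratio of NHP2 to DKC1 was 1.54 and 1.6 in sh-Scb and 2.40 and 3.31 in sh-SAPCD2. The ratio of NOP10 to DKC1 was 1.28 and 1.25 in sh-Scb and 2.04 and 2.63 in sh-SAPCD2. For all 3 ratios both knockdown libraries were above both controls. This follows from the single genes, since DKC1 was lower and the other 3 were higher in both knockdown libraries, and adds no separate evidence. With 2 libraries against 2, a two-sided exact permutation test cannot go below p = 0.333, the value found for each of the 3 ratios.

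**Figure D2:**
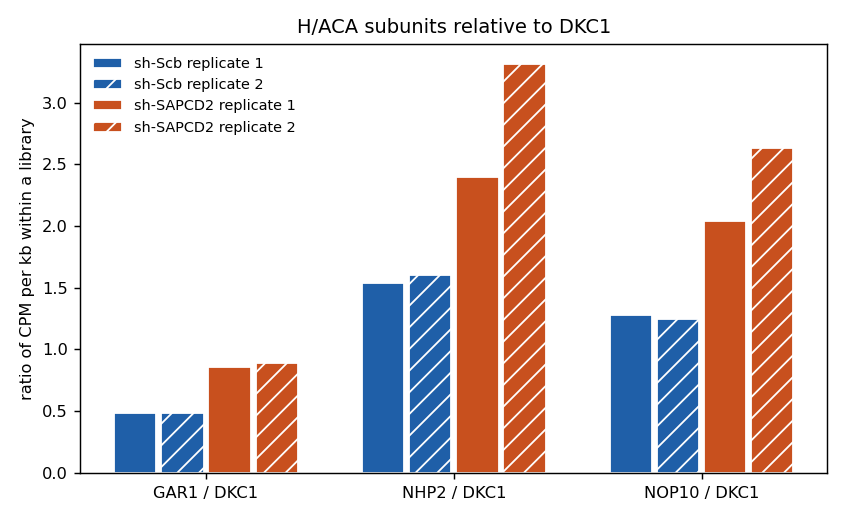
Ratio of CPM per kb of GAR1, NHP2 and NOP10 to DKC1 within each library (sh-Scb in blue, sh-SAPCD2 in orange, hatched bars for replicate 2). Each sh-SAPCD2 bar exceeds both sh-Scb bars of its gene, from 0.855 against 0.487 for GAR1 to 3.31 against 1.6 for NHP2.

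TERT (ENSG00000164362, chromosome 5 from 1253147 to 1295068, minus strand, 16 exons) was the least abundant of the 10 genes. Its counts were 105 and 176 in sh-Scb and 79 and 174 in sh-SAPCD2, or 3.80 and 6.40 CPM against 3.12 and 5.54 CPM. The difference between the 2 libraries of a group was larger than that between the groups. The log2 fold change was -0.23, with a 95% interval from -1.13 to 0.67 (adjusted p = 0.685 from edgeR), so that neither a fall to 0.457 of the control nor a rise to 1.6 times the control could be told apart from no change. The value turned to 0.19 without sh-Scb replicate 2 and to 0.11 without sh-SAPCD2 replicate 1, and was -0.56 and -0.71 without the other libraries. After the GC and length adjustment it was -0.60 (adjusted p = 0.145 from edgeR). TERC had 0 counts in every library, which allows up to 3 counts in each, or at most 0.119 CPM. Whether the library kit retains this RNA is not given in the sources used here. Its amount in the cells can therefore not be read from these counts.

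**Figure D3:**
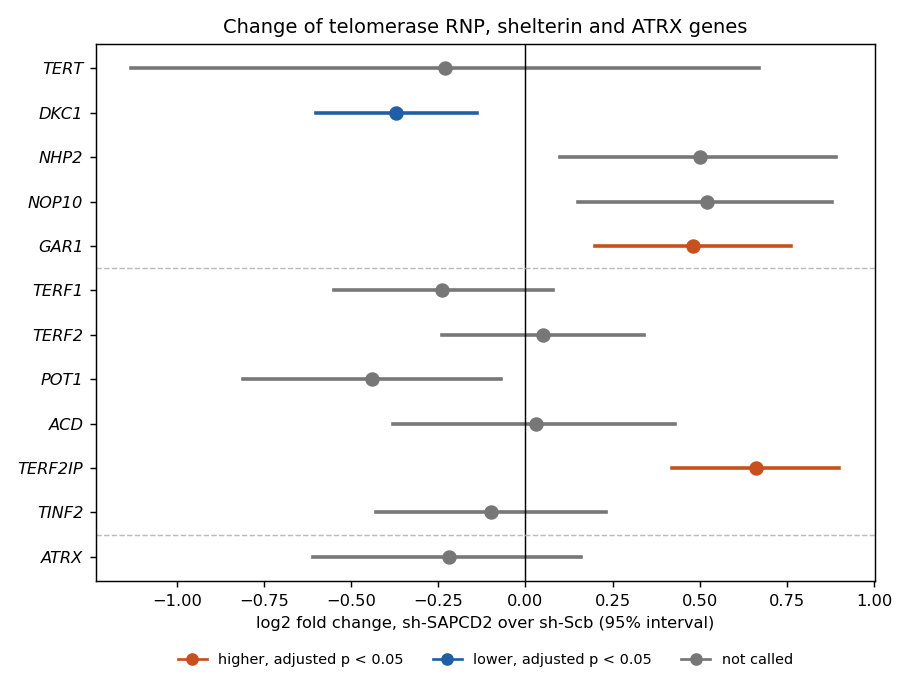
Log2 fold change (sh-SAPCD2 over sh-Scb) with its 95% interval for the telomerase proteins, the 6 shelterin subunits and ATRX, orange for genes called higher, blue for lower and gray for not called. DKC1 at -0.37 and GAR1 at 0.48 have intervals on opposite sides of 0, TERF2IP has the highest value of 0.66, and TERT has the widest interval.

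Among shelterin, TERF2IP was called higher, and none of the 4 subunits selected by name was called. TERF2 had 50.5 and 57.6 CPM in sh-Scb and 56.4 and 55.8 CPM in sh-SAPCD2, with a log2 fold change of 0.05 (95% interval -0.24 to 0.34). ACD had 26.9 and 24.8 CPM in sh-Scb and 22.9 and 29.7 CPM in sh-SAPCD2, with a log2 fold change of 0.03 (95% interval -0.38 to 0.43). For both genes the sh-SAPCD2 and sh-Scb values overlapped, and TERF2 had -0.04 without sh-Scb replicate 1. ACD had -0.18 without sh-SAPCD2 replicate 2, -0.03 without sh-Scb replicate 2 and -0.20 after the GC and length adjustment. TERF2 shares its locus with CYB5B on the other strand, which was called lower at a log2 fold change of -0.66 (adjusted p = 0.0147 from edgeR), and ACD overlaps CARMIL2 on the other strand.

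POT1, on chromosome 7 from 124822386 to 124929983, had 35.6 and 36.6 CPM in sh-Scb and 29.6 and 23.6 CPM in sh-SAPCD2. Both knockdown libraries were lower than both controls. The log2 fold change was -0.44 (SE 0.153, 95% interval -0.81 to -0.07, adjusted p = 0.0826 from edgeR), and the gene was called after the GC and length adjustment, at -0.32 (adjusted p = 0.0243 from edgeR). Without sh-SAPCD2 replicate 2 it was -0.29, and without replicate 1 it was -0.62. The antisense gene POT1-AS1 on the other strand had 21 and 28 counts in sh-Scb and 5 and 8 counts in sh-SAPCD2, and was called lower at a log2 fold change of -1.94 (adjusted p = 0.0342 from edgeR).

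TERF1 had 35.5 and 36.7 CPM in sh-Scb and 32.4 and 28.8 CPM in sh-SAPCD2. The groups did not overlap, and the log2 fold change of -0.24 had a 95% interval from -0.55 to 0.08 (adjusted p = 0.223 from edgeR). It was -0.33 without sh-SAPCD2 replicate 1, -0.15 without replicate 2 and -0.10 after the GC and length adjustment (adjusted p = 0.383 from edgeR). TERF1 has 7 processed pseudogenes in the table, with at most 39 counts in a library against 820 to 1011 counts for TERF1 itself, and how reads with several matches were counted is not given in the sources used here.

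The remaining subunits were read for the whole complex. TERF2IP, the RAP1 protein, had 116.2 and 118.7 CPM in sh-Scb and 179.1 and 191.7 CPM in sh-SAPCD2. It rose from 117.5 ± 1.79 to 185.4 ± 8.84 CPM (SD, n = 2 per group), with a log2 difference of 0.66 (SE 0.0982, adjusted p = 0.00765 from edgeR). TERF2IP overlaps KARS1 on the other strand, which was not called. The call of TERF2IP was lost without sh-Scb replicate 1 or replicate 2 (0.64 and 0.67). Without sh-SAPCD2 replicate 1 or replicate 2 it was kept (0.70 and 0.61). TINF2 had 26.3 and 23.5 CPM in sh-Scb and 23.5 and 22.9 CPM in sh-SAPCD2, with a log2 fold change of -0.10 (95% interval -0.43 to 0.23). The CPM per kb of POT1 relative to TERF2IP was 0.166 and 0.167 in sh-Scb and 0.0897 and 0.0669 in sh-SAPCD2, lower in both knockdown libraries (two-sided exact permutation test, p = 0.333, the smallest possible). This too follows from the single genes, as POT1 was lower and TERF2IP higher in both knockdown libraries.

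ATRX, on chromosome X from 77504880 to 77786233 with 35 exons, had 232.4 and 237.5 CPM in sh-Scb and 232.6 and 170.2 CPM in sh-SAPCD2. The first knockdown library was at the control level and the second was below it. The log2 fold change was -0.22 (SE 0.158, 95% interval -0.61 to 0.16, adjusted p = 0.341 from edgeR). It was -0.01 without sh-SAPCD2 replicate 2 and -0.47 without replicate 1, so that 1 library decided the value. The ATRX transcript spans 11165 bp at 36.9% GC, in the range where sh-SAPCD2 replicate 2 read lower over genes under 45% GC, and its value after the GC and length adjustment was -0.13 (adjusted p = 0.0960 from edgeR). ATRX mRNA was present at 5346 to 6535 counts in every library.

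Compared per length, the H/ACA mRNAs were the most abundant and TERT the least. In sh-Scb, the mean CPM per kb of canonical transcript was 115.0 for NHP2, 92.9 for NOP10, 73.5 for DKC1, 35.6 for GAR1, 21 for ATRX, 18.0 for TERF2, 17.1 for ACD, 10.8 for TERF1, 9.20 for POT1 and 1.26 for TERT. Of the neighbors in this order, only TERF2 and ACD overlapped in their control libraries. With the union of all annotated exons as the length, POT1 came before TERF1, and the other places did not change. In sh-SAPCD2 the H/ACA levels were 162.1 CPM per kb for NHP2, 132.7 for NOP10, 56.8 for DKC1 and 49.6 for GAR1.

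The study's hairpin #1 is shown because its seed (bases 2 to 8, in capitals) can pair with 3′ untranslated regions of genes other than SAPCD2. Both arms of the stem are given 5′ to 3′.
guide arm: aTGAAGGTggaatccagaggt
passenger arm: aCCTCTGGattccaccttcat

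The complement of the guide seed, ACCTTCA, was found in the 3′ untranslated regions of DKC1 and TERF1, and in 12.5% of 13584 tested genes with such a region, 14.9% of those called lower and 12.4% of those called higher. The complement of the passenger seed, CCAGAGG, was found in none of the 10 genes and in 17.6% of tested genes, 18.0% of the lower and 20.6% of the higher ones. Shifted sites singled out earlier on these same libraries (the heptamer TCCACCT, the heptamer AGAGGTC, the heptamer CCACCTA and the heptamer GAGGTCA) were found in DKC1, POT1 and ATRX. They were present in 33.9% of tested genes, in 47.0% of those called lower and in 27.2% of those called higher. As the sites were chosen on these libraries, the shares among called genes are not independent of that choice. Their part in the values of DKC1, TERF1, POT1 and ATRX was not tested.

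Further genes that act with these proteins were counted in lists by role, to be read against the 12.5% of all tested genes that were lower and the 12.4% that were higher. Of 14 genes for the telomerase RNA, its assembly and maturation, 13 were tested, 2 were lower and none was higher by edgeR or DESeq2 (1 by edgeR's unadjusted p under 0.05), with a median log2 fold change of -0.03, so the share lower was close to that of all genes. The lower genes were TGS1, which forms the trimethylguanosine cap of TERC, at -0.79 (adjusted p = 0.0130), and ZCCHC8, a subunit of the nuclear exosome targeting complex, at -0.47 (adjusted p = 0.0438 from edgeR). COIL, the scaffold of Cajal bodies, had -0.44 (adjusted p = 0.0641), TENT4B, which adds oligo(A) to RNA ends, had 0.35 (adjusted p = 0.0896), and NVL had -0.32 (adjusted p = 0.132), and these 3 were not called.

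Synthesis of the telomeric C strand follows telomerase and is done by the CST complex with DNA polymerase alpha-primase. Of these 7 genes, 4 were lower and none was higher by edgeR (2 by its unadjusted p under 0.05, 1 by DESeq2), with a median log2 fold change of -0.93. The 4 lower genes are the whole polymerase alpha-primase. This enzyme also acts in DNA replication across the genome, so these values are not particular to telomeres. PRIM1 fell from 48.7 ± 1.93 to 13.7 ± 1.35 CPM (SD, n = 2 per group), and its log2 fold change was -1.83. POLA2 had -1.39, POLA1 had -0.95 and PRIM2 had -0.93 (adjusted p from 0.00207 to 0.0176 over the 4 genes, edgeR). None of the 3 CST subunits was called by edgeR. TEN1 had 0.79 (adjusted p = 0.0784), and STN1 with 0.38 and CTC1 with -0.26, named after their values were seen, complete the complex.

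Of 20 genes for telomere replication and end processing, 11 were lower and 1 was higher, with a median of -0.52, where 12.5% of all tested genes were lower and 12.4% higher. TIMELESS, a fork protection factor, fell from 126.5 ± 1.35 to 57.8 ± 3.47 CPM (SD, n = 2 per group), with a log2 difference of -1.13. The BLM helicase had -1.25, the nuclease-helicase DNA2 had -1.20, the exonuclease EXO1 had -0.98 and the nuclease MRE11 had -0.76, all called (adjusted p from 0.00312 to 0.0110 over these 5, edgeR). The higher gene was the tankyrase TNKS2, which modifies TERF1, at 0.53 (adjusted p = 0.0292 from edgeR). It was named after its value was seen, as the single higher gene. TIMELESS, BLM, DNA2, EXO1 and MRE11 also act at replication forks and breaks across the genome.

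Of 20 partners of ATRX and genes of recombination-based lengthening, 10 were lower by edgeR, with a median of -0.49. None was higher by edgeR or DESeq2 (2 by edgeR's unadjusted p under 0.05). Of all tested genes, 12.5% were lower and 12.4% higher by edgeR. The histone chaperone ASF1B fell from 57.6 ± 3.97 to 18.3 ± 3.37 CPM (SD, n = 2 per group), with a log2 difference of -1.65. The BLM complex subunit RMI2 had -1.35, the FANCM translocase had -0.99 and the heterochromatin protein CBX5 had -0.71 (adjusted p from 0.00322 to 0.0110 over ASF1B and these 3, edgeR). ASF1B, RMI2, FANCM and CBX5 do not act only at telomeres, so these values are not particular to ATRX or to this lengthening. DAXX, the partner of ATRX in histone deposition, had -0.41 (adjusted p = 0.0856 from edgeR) and was named after its value was seen.

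The 18 snoRNP partners and ribosomal RNA synthesis genes gave a frame for the H/ACA subunits outside telomerase, with 3 lower (12.5% of all tested genes), 1 higher (12.4% of all tested genes) and a median of 0.05. UBTF, a factor of RNA polymerase I, had -0.57, TCOF1 had -0.46 and the nucleolar protein NPM1 had -0.41, while the ribosomal RNA methyltransferase NOP2 rose with 0.47 (adjusted p from 0.0136 to 0.0268 over these 4, edgeR). BOP1 had 0.56 (adjusted p = 0.155 from edgeR) and was not called. It had 105.3 and 101.3 CPM in sh-Scb and 110.0 and 193.7 CPM in sh-SAPCD2, so most of its value came from sh-SAPCD2 replicate 2.

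**Figure D4:**
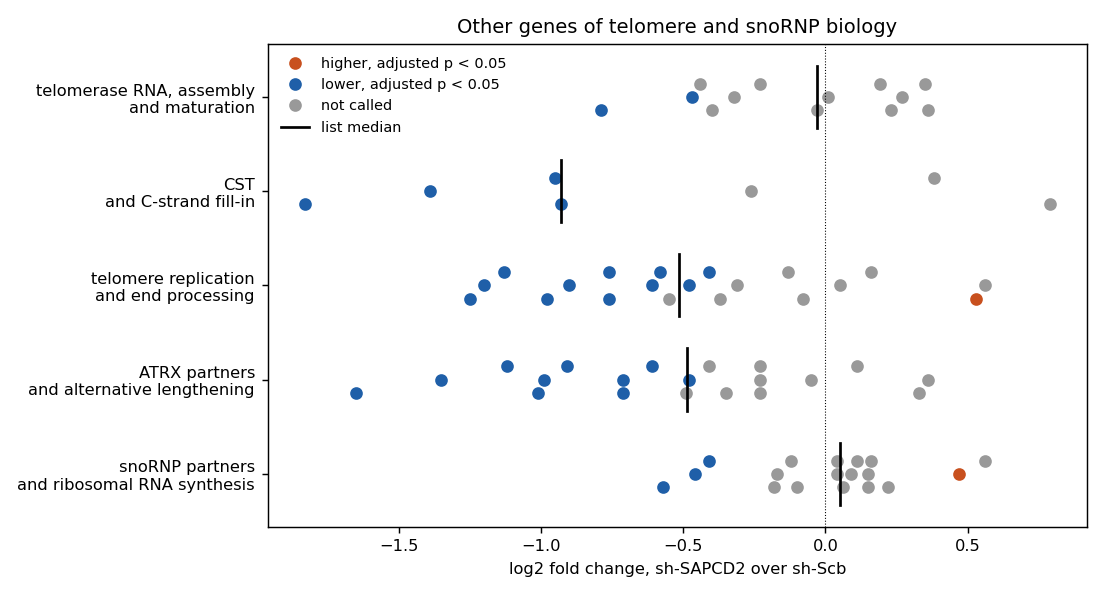
Log2 fold change (sh-SAPCD2 over sh-Scb) of the tested genes in 5 lists by role, 1 point a gene, orange for higher, blue for lower, gray for not called, with a line at each list's median. Lower genes are most frequent for C-strand synthesis (4 of 7), telomere replication (11 of 20) and ATRX partners (10 of 20). The 4 in C-strand synthesis are all subunits of polymerase alpha-primase.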

How the data were processed

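RNA-seq of 4 libraries of SK-N-BE(2) cells, 2 sh-Scb and 2 sh-SAPCD2, was used. The authors deposited 1 table of raw gene counts by Ensembl identifier. Their processing notes name HISAT2 2.2.0, and the study's methods name StringTie for assembly and abundance, while the step to whole counts, its handling of strand and the Ensembl release are not given in the sources used here. The labels name a TruSeq RNA kit. Every column of the table matched a label, leaving 0 unused. Symbols, positions and lengths came from GENCODE 44, which held 17467 (93%) of the 18779 tested genes. Genes were filtered with filterByExpr (minimum count 10, minimum total 15), scaled by TMM and tested with edgeR 4.0.16 (quasi-likelihood, Benjamini-Hochberg over all tested genes, threshold 0.05) in R 4.3.3. The biological coefficient of variation was 15.4%. The test was tried on simulated data. Alternatives were DESeq2 1.42.0, its size factors, library totals, other filters, protein-coding genes only, the replicate number as a block, a loess correction (span 0.3) for GC content and length, the union of exons as length, and leaving out each library. Named were the 10 genes, SAPCD2, TERC, TERF2IP, TINF2, genes that overlap these or are their pseudogenes, and up to 5 genes with the smallest p of each list. Some items of the lists are not reported here. Members and lists were chosen with earlier results of these data known. Promoters came from RefSeq, and hairpin arms from the supplementary methods.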

Additional observations from a re-analysis of the deposited data

How the results depend on the processing

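The limits are those of 2 libraries a group. Leaving one out leaves a lone sample that is assumed to vary like the other group. Over all genes, 2339 were lower and 2326 higher, against 1180 and 1081 with no filter on low counts and 3607 and 3910 with the correction for GC content and length. DKC1 and GAR1 lost their call with no filter (-0.37 and 0.48). NHP2 and NOP10 were called by DESeq2 (0.51 and 0.53) and under the correction (0.35 and 0.51), NOP10 also with DESeq2 size factors (0.51), and POT1 under the correction (-0.32). ACD changed sign with protein-coding genes only (-0.01) and under the correction (-0.20). The cause was not tested.

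Of the 10 genes, 0 were lower and 0 higher with no filter, 2 lower and 3 higher under the correction, 3 higher by DESeq2 and 2 higher with DESeq2 size factors. With no filter, 1 assembly gene, 7 replication genes, 6 ATRX partners and 1 snoRNP partner were lower, and 0 replication genes and 0 snoRNP partners were higher. Under the correction, 4 assembly genes, 1 C-strand gene, 3 replication genes, 1 ATRX partner and 4 snoRNP partners were higher, and DESeq2 called 1 C-strand gene and 2 snoRNP partners higher.

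The replicate numbers were not shown to pair the libraries (correlation of same-numbered deviations -0.02, with 2 pairs). With the replicate block, 2701 genes were lower and 2860 higher. DKC1 was not called (-0.37), NHP2 (0.48) and NOP10 (0.51) were called, and 0 of the 10 genes were lower and 3 higher. With the block, 1 assembly gene was lower, and 1 C-strand gene, 2 replication genes and 2 snoRNP partners were higher. With the block and the correction together, NHP2 (0.35), NOP10 (0.51) and POT1 (-0.32) were called, ACD was -0.20, 2 of the 10 genes were lower and 3 higher, and 3 assembly genes, 2 C-strand genes, 3 replication genes, 1 ATRX partner and 3 snoRNP partners were higher.

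Leaving out each library gave -0.71 to 0.19 for TERT (0.19 without sh-Scb replicate 2 and 0.11 without sh-SAPCD2 replicate 1), -0.41 to -0.34 for DKC1, 0.25 to 0.70 for NHP2, 0.32 to 0.68 for NOP10, 0.45 to 0.50 for GAR1, -0.33 to -0.15 for TERF1, -0.04 to 0.15 for TERF2 (-0.04 without sh-Scb replicate 1), -0.62 to -0.29 for POT1, -0.18 to 0.20 for ACD (-0.03 without sh-Scb replicate 2, -0.18 without sh-SAPCD2 replicate 2) and -0.47 to -0.01 for ATRX. It gave 0 to 4 of the 10 genes lower and 0 to 3 higher, and 0 to 1 other shelterin genes higher. For assembly genes it gave 0 to 4 lower and 0 to 2 higher, for C-strand genes 4 lower and 0 to 1 higher, for replication genes 5 to 15 lower and 0 to 3 higher, for ATRX partners 6 to 14 lower and 0 to 2 higher, and for snoRNP partners 0 to 5 lower and 0 to 6 higher. Over all genes, it gave 1146 lower and 1201 higher without sh-Scb replicate 1, 1152 and 1176 without sh-Scb replicate 2, and 4014 and 4396 without sh-SAPCD2 replicate 1.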
